A study of Homo sapiens with 10 samples.

Results

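S100 and SPRR transcripts, encoding calcium-binding proteins and cornified envelope precursors of stratified epithelia, were followed in T47D breast cancer lines with and without an inducible progesterone receptor (PR). The set comprised S100A7, S100A8, S100A9, S100A10, S100A14, S100P, SPRR1A, SPRR1B and SPRR3, chosen by name with earlier results of these arrays known, and every probe set paired with 1 of these symbols alone was read on all 10 arrays. That gave 9 of the 11963 genes on the arrays and 11 of the 22277 probe sets, because S100A8 and SPRR1A have 2 probe sets each. Where a gene had several probe sets, the one with the highest mean signal stood for it, and 8 of the 9 members were among the 10911 genes whose highest array reached log2 6. S100A7 did not reach that level.

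The lines were stable clones derived from T47D-Y, a PR-negative variant of the luminal T47D line, selected with G418 and hygromycin B. iEV carried the empty inducible vector, iWT wild-type PR-B, and iKR the K388R mutant of PR-B, which lacks its main site for attachment of the small protein SUMO. AP21967, a dimerizer that switches the vector on, was given for 2 days, and the synthetic progestin R5020 for 6 h, with ethanol as the vehicle. The study's methods for these arrays give 1 day of serum starvation before R5020 or vehicle. The labels write the doses as 10e-9 M for AP21967 and 10e-8 M for R5020, and the study's methods write the same exponents as plain powers of 10. iWT and iKR were each measured in 4 states (vehicle, R5020, AP21967, and AP21967 with R5020) and iEV in 2 (vehicle and AP21967), on 1 Affymetrix human expression array per state. Each vector was carried by 1 clonal line, so that effects of the vector and of the clone cannot be told apart. With 1 array per condition, no difference below has a replicate check, and none carries a p-value. A difference was counted when it passed 2.0 fold, which is 1 on the log2 scale.

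S100 proteins are small calcium sensors that act mostly as dimers. S100A8 and S100A9 pair to form calprotectin, a zinc- and manganese-binding protein best known from neutrophils and inflamed epithelium, and S100A7 (psoriasin) is induced in psoriatic skin and in some breast tumours. S100A10 forms a complex with annexin A2 at the plasma membrane, S100A14 is an epithelial member of the family, and S100P is abundant in placenta and several carcinomas. The small proline-rich proteins SPRR1A, SPRR1B and SPRR3 are cross-linked by transglutaminases into the cornified envelope of squamous cells. All members but S100P lie in the epidermal differentiation complex of chromosome 1 or at its edges.

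The sequences just upstream of the transcription starts of the genes on which the results turn are given first, since neighbouring members behaved differently. All are 250 bases ending at the base before the start, on the gene's own strand, from RefSeq on GRCh38.p14. Capitals mark the AP-1 motif TGANTCA and the TATA box TATAAA. S100A8 has 3 listed starts, and the one shown is the start with a TATA box 20 to 40 bases upstream.
SPRR1A, chr1:152983831-152984080, plus strand: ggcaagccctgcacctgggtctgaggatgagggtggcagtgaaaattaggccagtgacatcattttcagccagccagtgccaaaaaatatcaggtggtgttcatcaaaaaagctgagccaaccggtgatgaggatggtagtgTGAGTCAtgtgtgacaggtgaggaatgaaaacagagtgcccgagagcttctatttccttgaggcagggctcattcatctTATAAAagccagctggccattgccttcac
SPRR3, chr1:153001499-153001748, plus strand: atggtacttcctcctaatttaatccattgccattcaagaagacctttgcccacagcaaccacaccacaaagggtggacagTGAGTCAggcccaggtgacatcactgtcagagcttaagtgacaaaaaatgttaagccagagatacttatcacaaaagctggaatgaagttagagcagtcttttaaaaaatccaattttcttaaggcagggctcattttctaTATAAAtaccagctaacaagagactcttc
SPRR1B, chr1:153030953-153031202, plus strand: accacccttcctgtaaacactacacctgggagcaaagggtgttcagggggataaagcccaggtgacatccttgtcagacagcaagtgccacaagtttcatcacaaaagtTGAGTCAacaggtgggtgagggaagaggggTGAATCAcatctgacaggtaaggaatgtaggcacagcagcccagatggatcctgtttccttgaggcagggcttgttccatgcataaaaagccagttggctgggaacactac
S100A8, chr1:153391074-153391323, minus strand: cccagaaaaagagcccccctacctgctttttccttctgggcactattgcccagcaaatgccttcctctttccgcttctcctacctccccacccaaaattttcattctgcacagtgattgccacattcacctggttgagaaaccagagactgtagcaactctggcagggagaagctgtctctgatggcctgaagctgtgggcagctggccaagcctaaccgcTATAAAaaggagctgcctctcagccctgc
S100A9, chr1:153357604-153357853, plus strand: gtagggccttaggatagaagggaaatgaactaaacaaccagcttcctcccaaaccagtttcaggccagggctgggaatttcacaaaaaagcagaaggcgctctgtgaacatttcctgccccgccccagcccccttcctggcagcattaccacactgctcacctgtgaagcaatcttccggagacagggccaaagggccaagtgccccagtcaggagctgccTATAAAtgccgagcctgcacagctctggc
S100P, chr4:6693628-6693877, plus strand: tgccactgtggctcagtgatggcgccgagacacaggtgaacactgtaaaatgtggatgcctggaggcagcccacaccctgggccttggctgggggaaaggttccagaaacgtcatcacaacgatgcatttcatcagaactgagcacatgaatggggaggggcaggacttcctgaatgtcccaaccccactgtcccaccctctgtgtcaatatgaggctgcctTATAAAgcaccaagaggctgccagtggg

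The AP-1 motif, bound by JUN and FOS family factors, was found in the windows of all 3 SPRR members, with 2 matches in SPRR1B and 1 each in SPRR1A and SPRR3. None of the S100 windows held it, and it occurred in 6.57% of 35116 RefSeq promoter windows. TATAAA was found upstream of SPRR1A, SPRR3, S100A7, S100A9, S100P and the S100A8 start shown, but not of SPRR1B, S100A10 or S100A14, against 10.7% of all windows. The progesterone response element half-site AGAACA (12.4% of all windows), the palindrome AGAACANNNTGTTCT (0.00285%) and the C/EBP motif TTGCNNAA (9.05%) had no match in any member window. Motifs were searched on both strands as written, and a match or its absence is a description of these letters only. The SPRR1A and SPRR1B windows were identical at 65% of their aligned positions, compared with 53.6% for SPRR1A and SPRR3 and 53.1% for SPRR1B and SPRR3.

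Between the lines, S100A8, SPRR1A and SPRR3 were higher and S100A9 lower in both PR-carrying lines than in iEV. The other members differed by less than 2.0 fold. PGR, the gene carried by the iWT and iKR vectors, read 6.25 and 6.17 in iEV and 10.65 to 12.08 in those lines, where its transcript was already high without AP21967. In iWT it read 11.12 with vehicle, 11.77 with R5020, 11.34 with AP21967 and 11.89 with both. In iKR the PGR values were 10.65, 11.43, 12.08 and 11.38 in the same order, so that the AP21967 difference with vehicle was much larger in iKR. These are transcript signals, and the arrays do not measure receptor protein. The study states that receptor expression in these lines depends on AP21967 alone, and reports equal protein in iWT and iKR after it. In these bulk RNA samples, fewer cells making a transcript and less transcript per cell cannot be told apart. Without AP21967, 3 members were past 2.0 fold higher and 1 lower in iWT, where 0.357% of all genes were higher and 0.852% lower, and the same 3 were higher and the same 1 lower in iKR (all genes, 0.605% and 0.935%). With AP21967, the 3 were again higher in iWT (0.431% of all genes) and in iKR (0.788%), and none was lower (0.687% and 0.825%). Because the members were chosen with these differences known, and the same iEV arrays served both lines, the counts are a description. The S100A8 and SPRR3 values rest on probe sets of the _s_at type, whose probes can match several transcripts. With _x_at and _s_at probe sets left out, 2 members passed 2.0 fold in each line without AP21967, and with it 1 did in iWT and 2 in iKR.

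S100A8, the calprotectin subunit, had the largest of these differences. Its brighter probe set read 9.63 and 9.64 (log2 signal) in iEV without and with AP21967. In iWT it read 11.14 with vehicle, 11.04 with R5020, 11.73 with AP21967 and 11.31 with both. In iKR the values were 11.53, 11.50, 12.35 and 12.07 in the same order. All 8 arrays of the PR-carrying lines lay above both iEV arrays. The difference from iEV was 1.51 in iWT and 1.91 in iKR without AP21967, and 2.09 (4.26 fold) and 2.71 (6.54 fold) with it. Among 10911 genes, ordered from the highest difference, S100A8 stood 8th and 6th without AP21967 and 4th and 2nd with it, in iWT and iKR respectively. The dimmer S100A8 probe set, at 5.77 to 7.07, was also higher in every PR-carrying array, by 0.66 and 0.64 without AP21967 and by 0.71 and 1.20 with it, so that only the last value passed 2.0 fold.

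S100A9, whose product pairs with that of S100A8, went the other way. It read 9.21 and 9.13 in iEV, compared with 7.96, 7.81, 8.19 and 7.93 in iWT and 7.83, 7.78, 8.16 and 8.22 in iKR (vehicle, R5020, AP21967, both). All 8 arrays of the PR-carrying lines lay below both iEV arrays. The difference was -1.25 in iWT and -1.38 in iKR without AP21967, and -0.95 and -0.97 with it, just inside 2.0 fold. Thus the transcripts of both calprotectin subunits, whose genes lie 29.008 kb apart, differed from iEV in opposite directions in both lines and both inducer states.

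**Figure D1:**
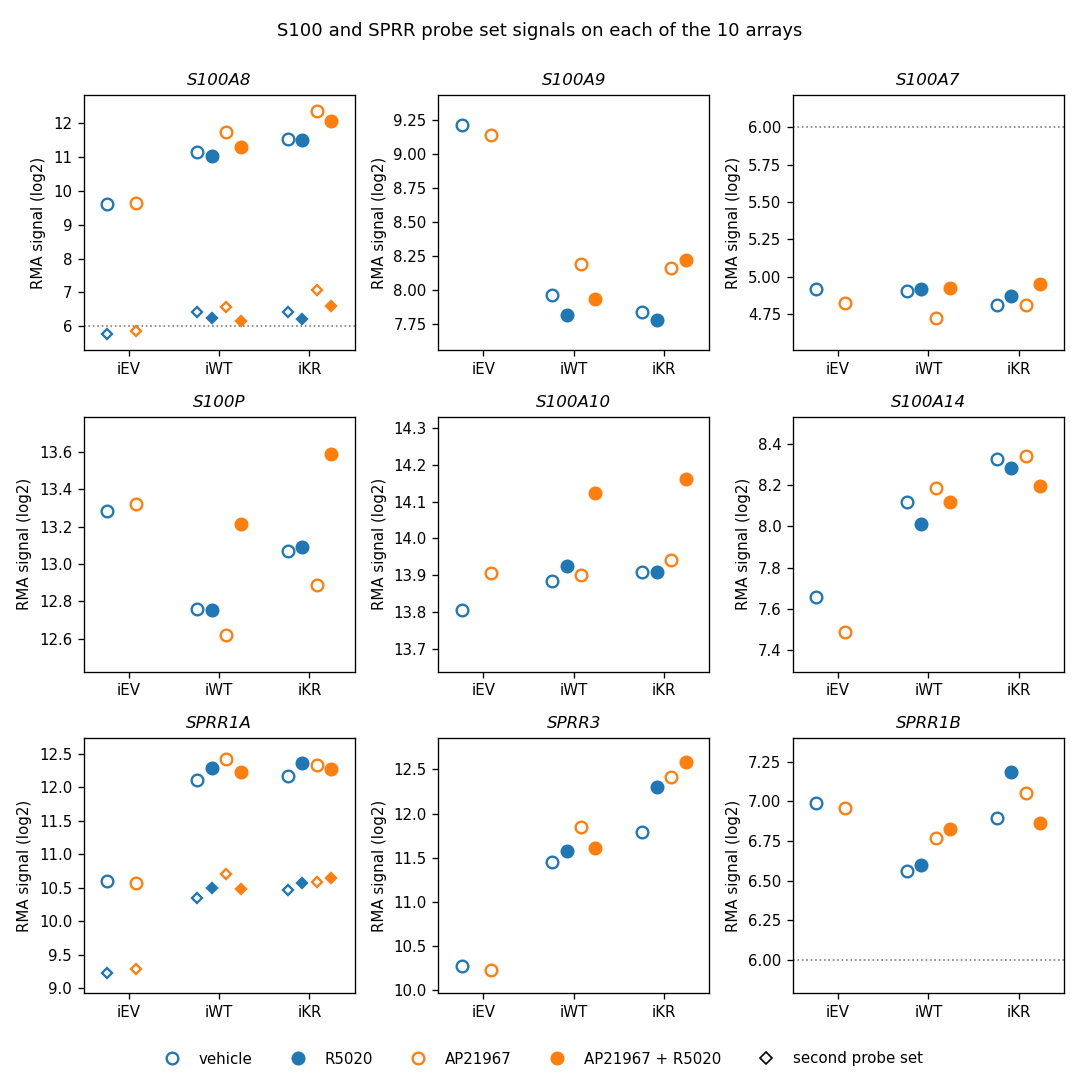
RMA signal (log2, y axis, scaled separately in each panel) of every member on each of the 10 arrays, by line (x axis). Blue and orange mark arrays without and with AP21967, open and filled symbols vehicle and R5020, diamonds the second probe set, and the dotted line log2 6. S100A8, SPRR1A and SPRR3 sit higher and S100A9 lower in all 8 iWT and iKR arrays than in both iEV arrays.

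SPRR1A and SPRR3, the envelope precursors, were higher in every PR-carrying array. SPRR1A read 10.60 and 10.56 in iEV, 12.10, 12.29, 12.42 and 12.22 in iWT and 12.16, 12.36, 12.34 and 12.28 in iKR, in the same order of states. The 8 arrays of iWT and iKR overlapped between the lines and lay well above iEV. It was 2.83 fold (iWT) and 2.95 fold (iKR) above iEV without AP21967, and 3.62 and 3.43 fold with it. The second SPRR1A probe set, of a type whose probes can match related transcripts, gave 2.17 and 2.36 fold without AP21967 and 2.70 and 2.46 fold with it. SPRR3 read 10.27 and 10.23 in iEV, 11.45, 11.58, 11.85 and 11.61 in iWT and 11.79, 12.30, 12.42 and 12.58 in iKR. Unlike SPRR1A, it differed from iEV more in iKR than in iWT, by 1.52 and 1.18 without AP21967 and by 2.19 and 1.61 with it.

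SPRR1B, the close relative of SPRR1A, did not share this pattern, although its gene starts only 45.388 kb beyond the end of SPRR1A. It read 6.99 and 6.96 in iEV, 6.56, 6.60, 6.77 and 6.83 in iWT and 6.90, 7.19, 7.05 and 6.86 in iKR. All 4 iWT arrays were below iEV, whereas the iKR arrays lay on both sides of it. The differences ran from -0.43 to 0.10, and the central 95% of all genes lay between -0.61 and 0.51 in iWT against iEV without AP21967.

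Of the remaining S100 members, S100A14 was modestly higher and S100P lower in the PR-carrying lines. S100A14 read 7.65 and 7.49 in iEV and 8.01 to 8.34 in the other 8 arrays, none of which overlapped iEV. Its differences were 0.46 and 0.67 without AP21967 and 0.70 and 0.85 with it. S100P read 13.28 and 13.32 in iEV, 12.76, 12.75, 12.62 and 13.22 in iWT and 13.07, 13.09, 12.89 and 13.59 in iKR. Without R5020 its differences were -0.52 and -0.21 without AP21967 and -0.70 and -0.44 with it, and the array of iKR given both agents exceeded iEV. S100A10, near the top of the signal range in every line, read 13.81 and 13.91 in iEV and 13.88 to 14.16 elsewhere, and differed from iEV by -0.01 to 0.10 on the arrays without R5020. S100A7 read 4.72 to 4.95 on all 10 arrays, below log2 6, and no difference is read from it.

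At the lower threshold of 1.5 fold with AP21967, 6 members were past it in iWT (S100A8, S100A14, SPRR1A and SPRR3 higher, S100A9 and S100P lower), as were 4.77% of all genes, and the same without S100P, 5 in all, in iKR (5.21%). Across all arrays, 4 of the 8 members past the level filter (S100A8, S100A14, SPRR1A and SPRR3) had every PR-carrying array above both iEV arrays, as did 12.8% of all genes, and 1 (S100A9) had every one below, as did 13.8%.

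**Figure D2:**
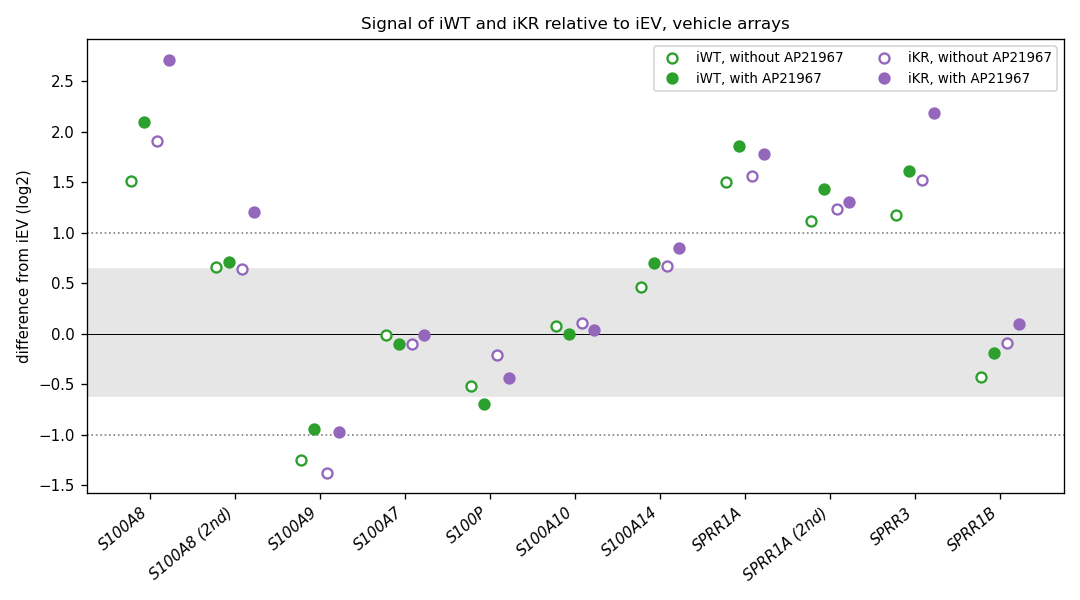
Log2 difference (y axis) of iWT (green) and iKR (purple) from iEV on the vehicle arrays, for each member probe set (x axis), with open symbols without AP21967 and filled symbols with it. The grey band spans the central 95% of 10911 genes, taken at its widest over the comparisons in the panel, and dotted lines mark 2.0 fold. S100A8, SPRR1A and SPRR3 lie above the band and S100A9 below it in every comparison with iEV. S100A14 also lies above it in iKR and in iWT with AP21967, and S100P below it in iWT with AP21967.

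Between the mutant and wild-type receptor lines, SPRR3 and S100A8 had the largest differences among the members, both higher in iKR. No member passed 2.0 fold in any of the 4 matched states, against 0.147% of all genes with vehicle, 0.192% with R5020, 0.174% with AP21967 and 0.449% with both. SPRR3 was higher in iKR by 0.34, 0.72, 0.57 and 0.97 in that order of states. S100A8 was higher by 0.39, 0.47, 0.62 and 0.76, but its dimmer probe set gave -0.01, -0.01, 0.49 and 0.45, near 0 where AP21967 was absent. Over the 4 states the lines overlapped for both genes, because the iWT array with AP21967 exceeded the iKR arrays without it for S100A8 and the iKR vehicle array for SPRR3. SPRR1A differed by -0.08 to 0.07, S100A10 by -0.01 to 0.04 and S100A9 by -0.13 to 0.28. S100P was higher in iKR in all 4 states, by 0.26 to 0.37, and S100A14 by 0.08 to 0.27. Past 1.5 fold in this comparison were SPRR1B and SPRR3 with R5020 (1.15% of all genes), S100A8 with AP21967 (1.09%), and S100A8 and SPRR3 with both agents (2.65%). For S100A14 and SPRR1B, every iKR array lay above every iWT array, as for 5.89% of all genes.

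With AP21967, the S100A8 signal was higher in both PR-carrying lines and about level in the empty-vector line. No member passed 2.0 fold in iEV, iWT or iKR with vehicle (0%, 0% and 0.00917% of all genes), nor in the R5020-treated arrays of iWT (0.541%) or iKR (1.53%). For S100A8 the difference between AP21967 and none was 0.01 in iEV, 0.59 in iWT and 0.82 in iKR, the last of which is 1.76 fold, and it stood 5th highest among 10911 genes in iWT and again in iKR. In the R5020-treated arrays, a separate pair in each line, the S100A8 difference was smaller, 0.28 in iWT and 0.57 in iKR, and stood 750th and 349th. The dimmer S100A8 probe set gave 0.09 in iEV, 0.14 in iWT and 0.65 in iKR with vehicle, and -0.09 and 0.37 with R5020. In iWT, then, the brighter probe set alone was clearly higher.

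SPRR3 behaved similarly in iKR, where AP21967 added 0.62 with vehicle and 0.29 with R5020, compared with 0.39 and 0.03 in iWT and -0.04 in iEV. S100A9 was higher with AP21967 in all 4 pairs of the PR-carrying lines, by 0.12 to 0.44, and was lower by 0.07 in iEV, which brought its signal partway back toward that of iEV. SPRR1A gained 0.32 in iWT and 0.18 in iKR with vehicle and lost 0.07 and 0.08 in the R5020-treated pairs. With vehicle, the central 95% of all genes lay within -0.25 to 0.25 with AP21967 in each of the 3 lines. In the R5020-treated pairs it was wider, -0.39 to 0.48 in iWT and -0.61 to 0.66 in iKR. For S100A9, only the iKR vehicle value, 0.33, lay outside these ranges. S100A14 differed by -0.09 to 0.11 in the 4 pairs of the PR-carrying lines and by -0.17 in iEV. S100P differed by 0.04 in iEV, by -0.14 in iWT and -0.18 in iKR with vehicle, and by 0.47 and 0.50 in the R5020-treated pairs. At 1.5 fold and with vehicle, S100A8 was past it in iWT (0.0825% of all genes) and S100A8 and SPRR3 in iKR (0.11%). S100A8 was thus the only member past 1.5 fold in both lines (0.0275%), and none was so in the R5020-treated pairs (1.2%).

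**Figure D3:**
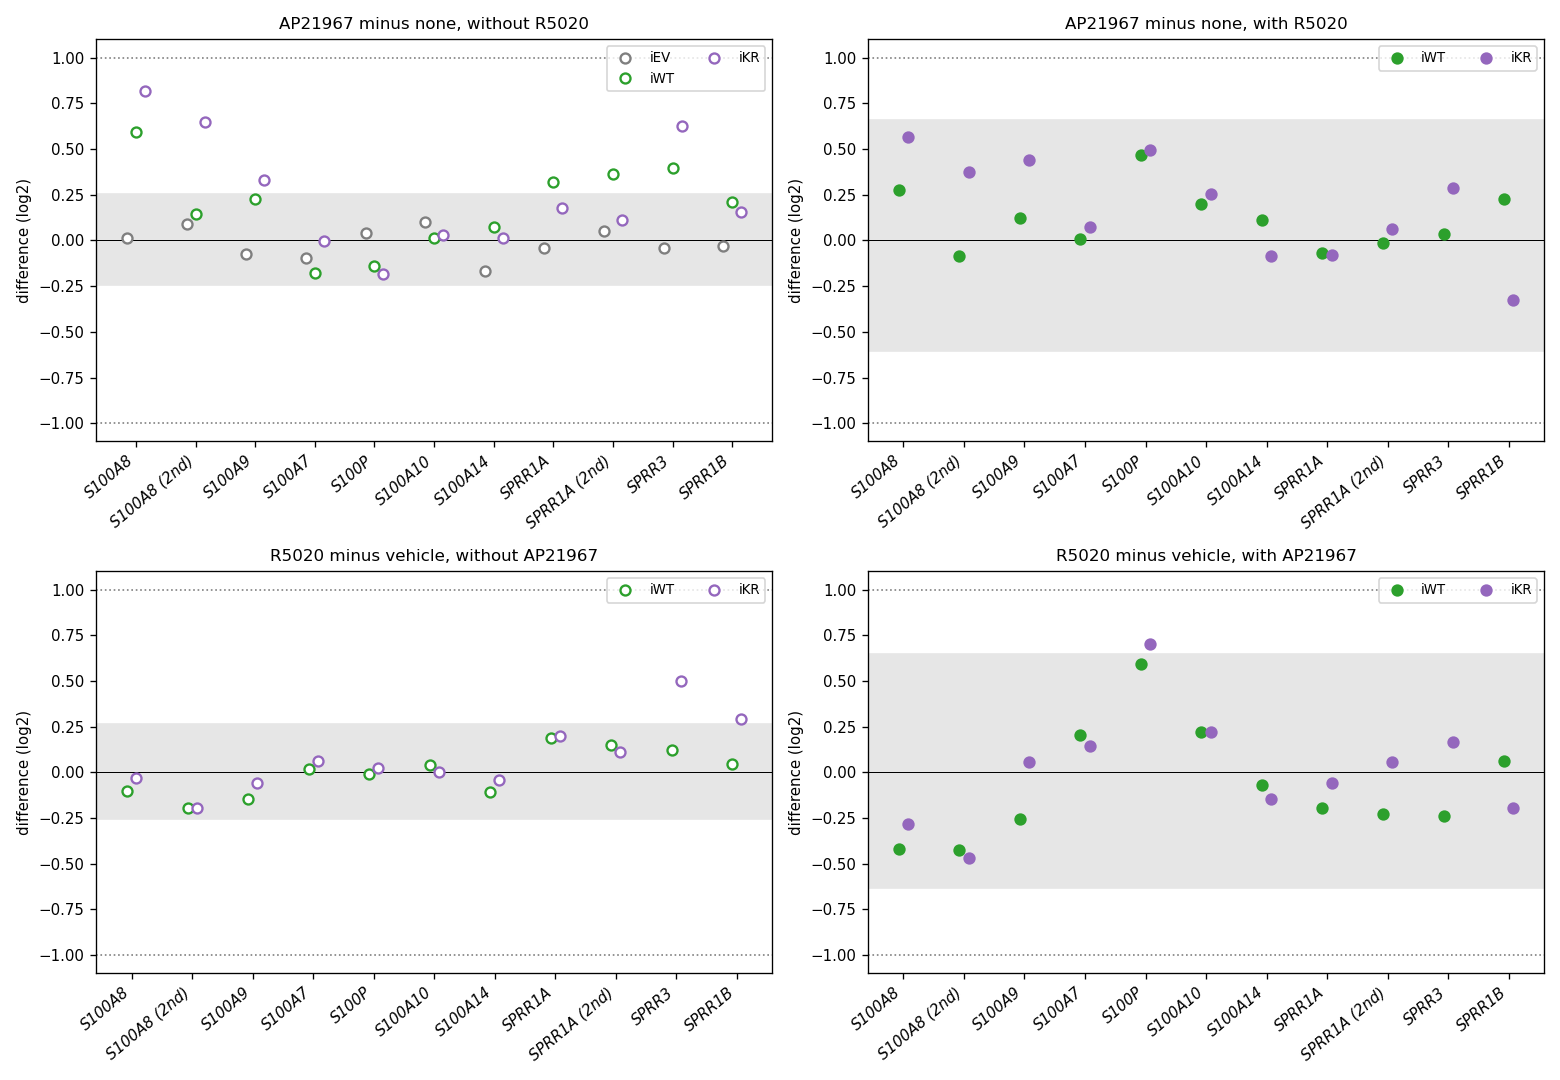
Log2 difference (y axis) with AP21967 (top, without and with R5020) and with R5020 (bottom, without and with AP21967) for each member probe set (x axis), in iEV (grey), iWT (green) and iKR (purple). The grey band spans the central 95% of 10911 genes, taken at its widest over the comparisons in the panel, and dotted lines mark 2.0 fold. The brighter S100A8 probe set and SPRR3 lie above the band with AP21967 in iWT and iKR without R5020. Both SPRR1A probe sets in iWT, and S100A9 and the dimmer S100A8 probe set in iKR, also lie above it there. S100P shows the largest differences with R5020 after AP21967.

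After 6 h of R5020, S100P was the member with the largest difference. S100A8, S100A9, S100A14, SPRR1A and SPRR3 kept their side of the iEV arrays, none of which had R5020, on every R5020 array. This is part of the separation over all 8 arrays given above (12.8% of all genes above iEV and 13.8% below). No member passed 2.0 fold with R5020 in iWT without AP21967 (0.0275% of all genes), in iKR without it (0.00917%), in iWT with it (0.614%) or in iKR with it (1.48%). With AP21967, S100P went from 12.62 to 13.22 in iWT and from 12.89 to 13.59 in iKR, differences of 0.60 (1.51 fold) and 0.70 (1.63 fold). Without AP21967 it differed by -0.01 and 0.02. S100P was the only member past 1.5 fold in iWT (2.61% of all genes) and in iKR (6.19%) after the inducer, and 1.26% of all genes were past it upward in both. The vehicle arrays with AP21967 were the lowest S100P values of their lines, and they also enter the AP21967 differences above.

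S100A10, the annexin A2 partner, was higher with R5020 by 0.22 in both lines with AP21967 and by 0.04 and 0.00 without it, well inside the range of the central 95% of genes. S100A8 was lower with R5020 after AP21967, with differences of -0.42 in iWT and -0.28 in iKR, and its second probe set gave -0.42 and -0.47. These values lay inside the central 95% of all genes, whose lower ends were -0.46 in iWT and -0.63 in iKR. Without AP21967 the brighter probe set differed by -0.10 and -0.03 and the dimmer by -0.19 and -0.20. The R5020 differences with AP21967 and the AP21967 differences of S100A8 share the AP21967 vehicle array, which was the highest S100A8 array of each line. SPRR3 was higher with R5020 by 0.50 in iKR without AP21967, above the upper end of the central 95% of all genes there (0.22), and by 0.12 in iWT. With AP21967 it differed by 0.17 in iKR and -0.24 in iWT. SPRR1B also lay above that end in iKR without AP21967, at 0.29, and differed by 0.04 in iWT, by 0.06 in iWT with AP21967 and by -0.19 in iKR with it. SPRR1A, S100A9 and S100A14 differed by -0.25 to 0.20 over the 4 R5020 comparisons. The R5020 difference in iKR minus that in iWT, with AP21967, was largest for SPRR3 at 0.40 and S100A9 at 0.31, and the central 95% of genes lay between -0.50 and 0.46. No member was past 2.0 fold in that quantity (0.257% of all genes), nor in the R5020 difference with AP21967 minus that without in iWT (0.587%) or iKR (1.69%).

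Along chromosome 1, most measured neighbours of the members did not pass 2.0 fold against iEV. From S100A10 to S100A14 (GRCh38.p14, 151982915 to 153616325, 1633.411 kb), RefSeq lists 61 protein-coding genes, 26 of which had a probe set. Of the 17 non-members past the level filter, none was past 2.0 fold in iWT against iEV in either inducer state or in iKR without AP21967, and 1, IVL, was higher in iKR with AP21967. IVL, which encodes the envelope protein involucrin and is named here after its values were seen, read 10.15 in iEV and 11.16 in iKR with AP21967, a difference of 1.01. The median difference of these neighbours was -0.01 and 0.08 in iWT and 0.05 and 0.09 in iKR, without and with AP21967.

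**Figure D4:**
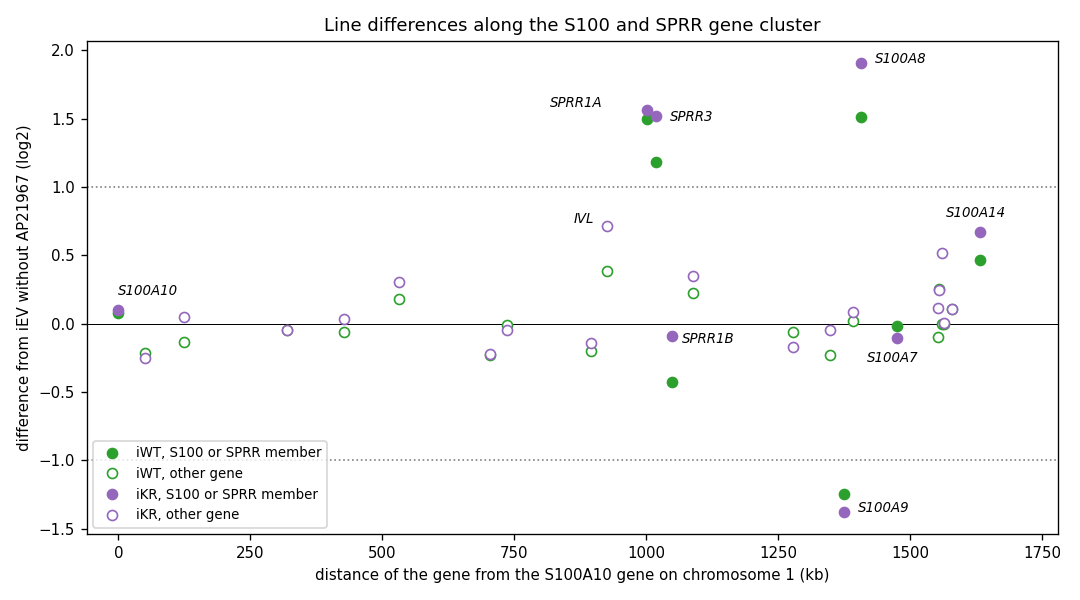
Log2 difference from iEV without AP21967 (y axis) of the measured genes against distance in kb from the start of S100A10 (x axis). Filled symbols are members and open symbols other genes. SPRR1A and SPRR3 (1.18 to 1.56), S100A8 (1.51 and 1.91) and S100A9 (-1.25 and -1.38) are past 2.0 fold. The other members and the other measured genes are not. The members were chosen with these differences known, so their contrast with the neighbours is a description.

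Other genes of cornified envelope formation were described by lists of known function. Of the 11 genes past the filter in the list of other S100 genes, which are 10 family members and S100PBP, the gene of an S100P-binding protein, none passed 2.0 fold in any line or R5020 comparison. Their median difference from iEV with AP21967 was -0.02 in iWT and 0.06 in iKR, beside 0.02 and 0.00 over all genes. Among the 8 other genes of the complex, with medians of 0.13 and 0.09, IVL was the exception given above. Cornification genes outside the complex, 25 past the filter, had 1 past 2.0 fold higher and 1 lower in iWT without AP21967 (0.357% and 0.852% of all genes) and 3 and 2 with it (0.431% and 0.687%). In iKR the counts were 2 and 2 without AP21967 (0.605% and 0.935%) and 3 and 2 with it (0.788% and 0.825%). The list's medians with AP21967 were 0.05 in iWT and 0.12 in iKR. CSTA, encoding the envelope protease inhibitor cystatin A, was lower, at 7.16 to 7.19 in iEV and 5.39 to 5.56 in the PR-carrying lines. It passed the level filter through the iEV arrays alone, and its values in the other lines lay below log2 6. KLK7, a peptidase of corneocyte shedding, was higher, at 7.89 to 8.06 and 9.06 to 9.53. DSC2, a desmosomal cadherin, was likewise higher, at 9.41 to 9.42 and 10.21 to 10.78, and ABCA12, a lipid transporter of lamellar granules, was lower, at 10.03 to 10.05 and 7.61 to 9.12. KLK5, the kallikrein that activates KLK7, named here after its values were seen, passed 2.0 fold only with AP21967. Leaving CSTA aside, ABCA12 lay below iEV in every array of both lines, as did 13.8% of all genes. KLK7 and DSC2 lay above it in every array, as did 12.8%. These genes were named for passing 2.0 fold against iEV, so this separation largely follows from that choice.

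Of the 10 binding partners and receptors of S100 proteins, none passed 2.0 fold against iEV, and their medians with AP21967 were 0.30 in iWT and 0.18 in iKR. ANXA2, which binds S100A10 and is named after its values were seen, read 13.11 to 13.17 in iEV and 13.82 to 14.03 in the PR-carrying lines. Of 19 regulators of S100 and SPRR genes, none passed 2.0 fold between lines (medians of 0.04 in iWT and 0.00 in iKR against iEV with AP21967). With R5020 after AP21967, 2 were past 2.0 fold higher in iWT, CEBPD and KLF4 (0.614% of all genes past it in either direction). In iKR 1 was, CEBPD (1.48%), and no regulator was past 2.0 fold lower in either line. The list's medians in these R5020 pairs were -0.03 in iWT and -0.02 in iKR. CEBPD, a C/EBP transcription factor, went from 10.25 to 11.46 in iWT and from 10.40 to 12.01 in iKR. KLF4, a factor of epidermal barrier formation, went from 9.90 to 11.09 and from 10.01 to 10.82. In the same R5020 pairs, S100A8, S100A9, S100A14, SPRR1A, SPRR1B and SPRR3 differed by -0.42 to 0.17. S100A10 was higher by 0.22 in both lines, and S100P by 0.60 in iWT and 0.70 in iKR. Any link between the regulators and the members was not tested.

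The luminal identity of the lines was checked on marker lists, and markers of other cells that make S100A8, S100A9 or SPRR proteins were checked alongside. All 13 luminal markers were past the filter, and their mean per array was 12.4 in iEV, 12.2 to 12.4 in iWT and 11.9 to 12.4 in iKR. ESR1 was lower by over 2.0 fold in iKR with AP21967 than in iEV, and FOXA1 fell by 1.25 with R5020 in iKR after AP21967. The 8 measured basal and squamous markers, of 12 listed, had means of 7.79 to 7.80, 7.74 to 7.82 and 7.83 to 7.91 in the 3 lines, and none passed 2.0 fold. KRT17, KRT6A, KRT6B and TP63 had no probe set paired with their symbol alone, so the list covers a squamous state only in part. The 11 measured myeloid markers had means of 6.22 to 6.32, 6.23 to 6.39 and 6.26 to 6.32, and none passed 2.0 fold. LYZ and TYROBP stayed below log2 6 on every array, and LYZ, the myeloid lysozyme, was at most 4.77. ESR1, LYZ and TYROBP are named after their values were seen. The lowest basal mean of the iKR arrays, 7.83, was just above the highest of iEV, 7.80, and the iWT means overlapped those of iEV. The median difference of the basal markers between iKR and iEV was 0.06 without AP21967 and 0.04 with it, beside -0.002 and 0.004 over all genes. The part of these markers in the S100 and SPRR differences was not tested.

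The genes whose signals followed each member most closely were ranked by Pearson r over the 10 arrays among 649 genes spanning at least 1 on the log2 scale. With arrays grouped by line, such correlations mostly repeat the line differences and are given as a description. For S100A8 they were HMGN4 (0.961), ASS1 (0.956) and PLXNA2 (0.954), and for S100A9 TP53I3 (0.979), LUZP2 (0.966) and KIAA0930 (0.965). SPRR1A was followed by CD24 (0.994), KLK5 (0.991) and RBPMS (0.990), and SPRR3 by SERPINB1 (0.965), HMGN4 (0.956) and CAPN2 (0.953). HMGN4 was the gene shared by the lists of S100A8 and SPRR3.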

How the data were processed

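The authors processed the raw array files in R with the affy package, using Robust Multi-array Average. The deposited table holds the resulting log2 signal of each probe set, background-corrected and quantile-normalized. Package versions are not given in the sources used here. Probe sets were named from GEO's platform annotation: 19070 of 22277 had 1 gene, 1043 several and 2164 were not listed, and 19058 of the 19070 matched RefSeq by Entrez ID. The probe set with the highest mean stood for its gene. Genes below log2 6 on every array were set aside. Differences were taken between single arrays and counted past 2.0 fold, which the methods used for the R5020 gene sets from these arrays (1.5 fold elsewhere), with no test. Members and gene lists were chosen with earlier results of these data known. Named list genes are those past 2.0 fold in either line against iEV in both inducer states or with R5020 after AP21967, at most 5 per list, with the 3 genes closest to a member in pattern; others are marked as named after their values were seen. The alternatives changed the fold threshold (1.5), the level filter (none, or log2 7 on average), the choice of probe set (the mean of a gene's probe sets, or none with the suffix _x_at or _s_at) and the scaling (median centring or cyclic loess). Arrays have no depth, and their number limits the precision. Python 3.11.15 with numpy 2.4.6 and pandas 2.3.3, and R 4.3.3 with limma 3.58.1 for the loess, were used. The counting was tested on simulated data.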

Additional observations from a re-analysis of the deposited data

How the results depend on the processing

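No paired analysis was possible because all labels carry replicate number 1, so that a replicate block has 1 level. A model pooling the AP21967 or R5020 pairs over lines was not fitted, since the members were chosen with these differences known. Cyclic loess and median centring left the 17 member counts the same, and moved none of 162 single differences by more than 0.113, the SD over genes between both iEV arrays. The mean of probe sets left the 17 counts the same and moved 13 of 162 differences. When probe sets with the suffix _x_at or _s_at were dropped, the counts against iEV went from 4 to 2 in iWT and in iKR without AP21967, and from 3 to 1 in iWT with it, by construction, since SPRR3 has no other probe set and S100A8 only its dimmer one. At 1.5 fold, 6 members in iWT and 5 in iKR were past it against iEV with AP21967. Between iKR and iWT, 2 were with R5020 (SPRR1B only just), 1 with AP21967 and 2 with both. With AP21967 and vehicle, 1 was in iWT and 2 in iKR, and with R5020 after AP21967, 1 in each line. The list counts moved in 2 of 136 cases under loess, 5 when probe sets were averaged and 7 when those with the suffixes were dropped. The filter of log2 7 moved 1 of 17 counts of all genes, and 1.5 fold moved all 17. Signals near background, such as S100A7, the dimmer S100A8 probe set and SPRR1B, limit what can be read from them.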
